A study of Mus musculus with 24 samples.

Results

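A set of 10 genes of thiol-based redox defence in sperm formation was followed through spermatid condensation in mice with a knockdown of CBP and p300 and in wild-type mice. They were taken by symbol, and every probe annotated to them was used: Txndc2, Txndc8, Nme8 and Txnrd3, which are spermatid or testis enriched, and Gpx4, Prdx1, Prdx2, Prdx4, Prdx5 and Prdx6, which most cells express. Of the 10 genes, 8 were among the 19057 gene symbols on the arrays, with 14 probes in all of the 45281 on the arrays, and 11 probes of 7 genes passed the detection filter, as did 19086 probes in all. Prdx5 and Prdx6 had no probe in the annotation and were not analysed here. The single probe of Nme8, 1 of 2 probes of Prdx1 (ILMN_2989706) and 1 of 2 probes of Prdx4 (ILMN_1242073) were above background on none of the 24 arrays and were not tested.

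Thioredoxins are small proteins that reduce disulfide bonds in other proteins and are themselves recharged by thioredoxin reductases at the cost of NADPH. Peroxiredoxins use thioredoxin to break down hydrogen peroxide, and glutathione peroxidases use glutathione for related work on peroxides. Sperm formation turns this chemistry to building as well as to defence: protamines, the fibrous sheath of the tail and the capsule around sperm mitochondria are hardened by disulfide bonds as spermatids condense, and the testis carries thioredoxins of its own for these structures.

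Biotin-labelled cRNA was hybridized to Illumina bead arrays in 4 groups of 6 arrays from mice 7 weeks old: knockdown condensing spermatids, wild-type condensing spermatids, knockdown round spermatids and wild-type round spermatids. Round spermatids are haploid cells with histone-packed DNA, and condensing spermatids are the later cells that replace histones by transition proteins and protamines. The labels place the knockdown of both Cbp and p300, histone acetyltransferases and transcriptional coactivators, in cells after meiosis, and name neither its driver nor the mouse strain. Whether the 6 arrays of a group come from 6 animals is not in the labels either; p-values then reflect only how far these samples spread, which may be technical.

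Of the probes on an array, 15687 to 18411 were above background (detection p under 0.05). Crebbp and Ep300, which encode CBP and p300, did not differ detectably between genotypes: their main probes gave knockdown minus wild type of -0.11 ± 0.17 and -0.02 ± 0.17 log2 in condensing and 0.01 ± 0.17 and 0.05 ± 0.17 in round spermatids (SE, n = 6 per group; limma adjusted p of 0.942 or more), so "knockdown" here is the label and is not checked by these transcripts. All 10 spermatid markers were above background in each group, with summed intensities of 156621 to 165858 in knockdown condensing, 157318 to 169580 in wild-type condensing, 156884 to 162331 in knockdown round and 150648 to 159701 in wild-type round arrays. The brightest of these spermatid markers lay near the top of the normalized scale and supplied most of each sum. The sums therefore do not compare spermatid content between groups. Condensing samples also carried transcripts of other cell types. The 5 tested erythroid markers summed to 59106 to 69359 and 50348 to 60866 in knockdown and wild-type condensing arrays, against 525 to 2051 and 409 to 1389 in knockdown and wild-type round arrays, and the 7 tested Sertoli markers to 12691 to 13704 and 10784 to 13259, against 930 to 2039 and 1073 to 1413. In condensing arrays the erythroid sums came mostly from globin probes, with group means of 14.07 to 14.57 log2. Those lie near the top of the scale, so the sums do not measure how far erythroid RNA differed. There were 3 round arrays that stood apart (wild-type replicate 3, knockdown replicates 8 and 10), with a mean correlation to their own group of 0.975 to 0.978, against 0.981 or more for every other array, and results that rest on them are given with and without them.

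Levels are given as normalized log2 intensity, whose highest value was 15.18 on every array; a difference of 1 is a 2-fold change. A probe's level shows hybridization to that probe, so levels are compared between groups and not between probes. In whole samples, fewer cells of a type and less RNA per cell cannot be told apart. A change was called at an adjusted p under 0.05 in limma's moderated two-sided test, with Benjamini-Hochberg adjustment over the 19086 probes. For each gene the main probe is the one with the highest mean level.

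Of the 7 measured genes, 5 changed through condensation in both genotypes at 1 probe or more. Prdx2 rose 5.18-fold in the knockdown and 4.14-fold in wild type, Txndc8, Prdx4 and Gpx4 at 2 of its 3 probes rose 1.23- to 1.62-fold in both genotypes, and Txnrd3 fell to 0.512 of its round level in the knockdown and to 0.560 in wild type. Txndc2 and the brightest Gpx4 probe did not pass the test in either genotype. Prdx1 passed it in the knockdown and not in wild type. The size of these changes depended on the scaling: with arrays scaled to the median of the detected probes, a choice made after seeing the data, the rises were 0.92 log2 in the knockdown and 0.93 in wild type for Txndc8, 0.90 and 0.99 for Prdx4, 1.00 and 1.01 for Gpx4 ILMN_3100812 and 1.04 and 1.27 for Gpx4 ILMN_3027761. With arrays scaled to the median of all probes Prdx4 rose by 0.57 in the knockdown and 0.55 in wild type, and Gpx4 ILMN_3100812 by 0.57 in wild type. That scaling made the rise of Prdx2 at its main probe smaller, at 1.92 log2 in the knockdown and 1.49 in wild type. In the knockdown 8 of the 11 probes were called higher and 1 lower in condensing than in round spermatids, where 28.0% of all probes tested were higher, 34.0% lower and 62.0% called in either direction. In wild type 7 of the 11 were called higher and 1 lower, where 27.9% of all probes were higher, 35.1% lower and 62.9% called. The median difference over the 11 probes was 0.46 in the knockdown and 0.34 in wild type, against -0.05 and -0.06 over all probes tested in the same comparisons. Prdx2 and Gpx4 supply 6 of the 11 probes, and the dimmer Prdx2 probes passed the detection filter only through condensing arrays. At 1 main probe per gene 5 of 7 were called in the knockdown and 4 of 7 in wild type, with medians of 0.33 and 0.20.

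**Figure D1:**
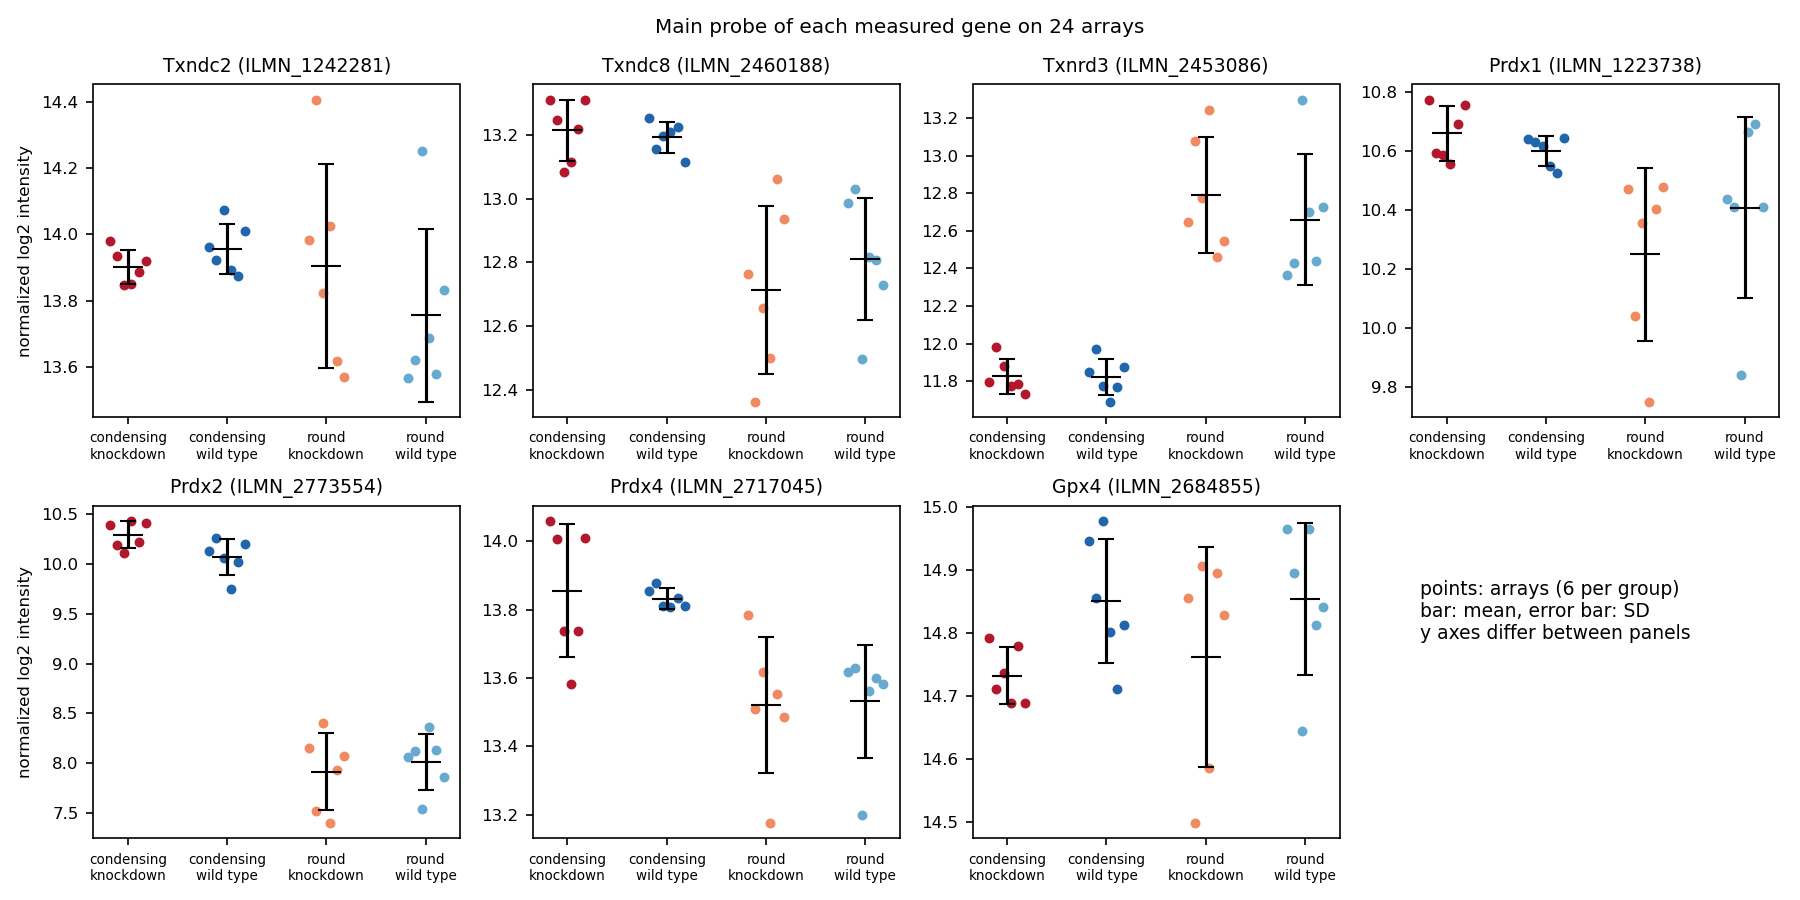
Normalized log2 intensity (y axis, its range differs between panels) of the main probe of each of the 7 measured genes in 4 groups of 6 arrays; each point is an array, the bar is the mean and the error bar the SD. Prdx2 stands between 9.75 and 10.43 in condensing arrays and between 7.40 and 8.40 in round arrays, Txnrd3 is higher in every round array than in any condensing array, and within a stage the genotypes overlap in every panel.

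Txndc2 encodes a thioredoxin of the sperm tail's fibrous sheath that is made in spermatids. Its probe (ILMN_1242281) had a lowest, median and highest level of 13.85, 13.90 and 13.98 in knockdown condensing and 13.87, 13.94 and 14.07 in wild-type condensing spermatids, against 13.57, 13.90 and 14.41 in knockdown round and 13.57, 13.65 and 14.25 in wild-type round spermatids. The condensing arrays lay within the spread of the round arrays, which was wide. The stage difference was -0.00 ± 0.13 in the knockdown (SE of the fit, 6 arrays per group; limma adjusted p = 0.99) and 0.20 ± 0.13 in wild type (limma adjusted p = 0.17). The wild-type difference passed the test without wild-type round replicate 3, at 0.30 (limma adjusted p = 0.027), and without all 3 arrays that stood apart, at 0.30 (limma adjusted p = 0.0033).

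Txndc8, a spermatid thioredoxin known from the Golgi and the forming acrosome, was higher in condensing spermatids. Its probe (ILMN_2460188) ran from 13.08 to 13.31 with a median of 13.23 in knockdown condensing and from 13.11 to 13.25 with a median of 13.20 in wild-type condensing spermatids. Knockdown round spermatids ran from 12.36 to 13.06 with a median of 12.71, and wild-type round spermatids from 12.50 to 13.03 with a median of 12.81. In both genotypes every condensing array was above every round array, by a narrow margin. The rise was 0.50 ± 0.11 in the knockdown (limma adjusted p = 3.1e-04) and 0.38 ± 0.11 in wild type (limma adjusted p = 0.0042). Nme8, a thioredoxin joined to nucleoside diphosphate kinase domains, had non-normalized intensities of 104 to 135 and a lowest detection p of 0.169, so its course was not measurable here.

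Txnrd3, a selenoprotein that joins a glutaredoxin domain to a thioredoxin reductase and is abundant in the testis, was the one measured gene to fall. Its probe (ILMN_2453086) ran from 11.73 to 11.98 with a median of 11.79 in knockdown condensing and from 11.69 to 11.97 with a median of 11.81 in wild-type condensing spermatids. The round arrays ran from 12.46 to 13.24 with a median of 12.71 in the knockdown and from 12.37 to 13.30 with a median of 12.57 in wild type. No round array reached down to a condensing one. The difference was -0.97 ± 0.14 in the knockdown (limma adjusted p = 7.1e-07) and -0.84 ± 0.14 in wild type (limma adjusted p = 6.6e-06), and it was called under each of 11 alternative settings and each of 24 omissions of an array. Scaled to the median of the detected probes it was smaller, at -0.68 in the knockdown and -0.49 in wild type.

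Prdx1, a cytosolic peroxiredoxin, passed the test in 1 genotype. Its detected probe (ILMN_1223738) ran from 10.56 to 10.77 with a median of 10.64 in knockdown condensing, and from 9.75 to 10.48 with a median of 10.38 in knockdown round spermatids. In wild type it ran from 10.52 to 10.64 with a median of 10.62 in condensing and from 9.84 to 10.69 with a median of 10.42 in round spermatids. Knockdown groups did not overlap, and 2 wild-type round arrays lay above every wild-type condensing one. The knockdown difference of 0.41 ± 0.13 was called (limma adjusted p = 0.0074) and the wild-type difference of 0.19 ± 0.13 was not (limma adjusted p = 0.20); the test of the difference between these is given with the genotype comparison. Before normalization its median intensity was lower in condensing than in round arrays, 1451 against 1630 in the knockdown and 1389 against 1833 in wild type. With arrays scaled to 1 median in place of quantile normalization the knockdown difference came to 0.01 (limma adjusted p = 0.94) and the wild-type one to -0.29, which was not called.

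Prdx2, a cytosolic peroxiredoxin that is also one of the abundant proteins of red blood cells, had the largest stage difference of the 7 genes. At its main probe (ILMN_2773554) levels ran from 10.11 to 10.43 with a median of 10.30 in knockdown condensing and from 9.75 to 10.25 with a median of 10.09 in wild-type condensing spermatids. Round arrays lay far below, from 7.40 to 8.40 with a median of 8.01 in the knockdown and from 7.54 to 8.37 with a median of 8.09 in wild type. The difference was 2.37 ± 0.15 in the knockdown (limma adjusted p = 8.0e-14) and 2.05 ± 0.15 in wild type (limma adjusted p = 1.7e-12). Without background correction it came to 1.90 in the knockdown and 1.64 in wild type, and with arrays scaled to the median of all probes to 1.92 and 1.49. The non-normalized medians were 1108 and 976 in knockdown and wild-type condensing arrays, against 400.5 and 445 in knockdown and wild-type round arrays.

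Both dimmer Prdx2 probes were also higher in condensing arrays, but each passed the detection filter only through those arrays. Their direction was thus largely set by the filter and adds no support to the main probe. Probe ILMN_2638354 was above background in all 12 condensing arrays, but in 2 knockdown and 1 wild-type round array, and it differed by 2.04 ± 0.16 in the knockdown and 1.71 ± 0.16 in wild type (limma adjusted p = 9.2e-12 and 3.1e-10). Probe ILMN_1242829 was not above background on any knockdown round array. Under the main background correction its rise there was at least 1.49-fold, a floor that does not hold without that correction. Measured means were 5.62 in knockdown condensing and 4.74 in knockdown round spermatids (limma adjusted p = 6.4e-05). In wild type it was above background in 5 of 6 condensing and 1 of 6 round arrays and differed by 0.55 ± 0.17 (limma adjusted p = 0.0071). The size of both dim probes' differences depended on the background correction. Without it ILMN_2638354 differed by 0.71 in the knockdown and 0.55 in wild type, and ILMN_1242829 by 0.25 and 0.15.

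Markers of other cell types moved with the rise of Prdx2. All 5 tested erythroid markers were called higher in wild-type condensing than in wild-type round spermatids, with a median difference of 5.97, as were 7 of 7 Sertoli markers (median 3.31), 7 of 8 macrophage and leukocyte markers (1.14), 6 of 7 peritubular and stromal markers (1.63), 3 of 5 endothelial markers (0.45) and 2 of 3 Leydig markers (2.30). None of these markers was called lower, where 27.9% of all probes tested were called higher and 35.1% lower. The marker counts cover only genes with a probe that passed the filter. The lists held 6 erythroid, 12 Sertoli, 11 macrophage and leukocyte, 9 peritubular and stromal, 6 endothelial and 6 Leydig genes. Slc4a1, the anion exchanger of red cells, and Myh11, a smooth muscle myosin, were above background on no round array, and Cyp11a1, a Leydig steroid enzyme, on no wild-type round array. Slc4a1, Myh11, the growth factor receptor Pdgfra and the endothelial cadherin Cdh5 passed the detection filter only through condensing arrays. Their rises were thus largely set by the filter and add no support. Of the 10 spermatid markers 4 were called higher and 4 lower (median -0.07), and of 5 tested of 9 listed meiotic markers 2 higher and 3 lower (median -0.75). These counts moved with the scaling: scaled to the median of the detected probes 7 spermatid markers were higher and 3 lower (median 0.62), and scaled to the median of all probes 5 were higher and 3 lower (0.18), with 0 meiotic markers higher and 3 lower. The part of other cell types in the rise of Prdx2, Txndc8, Prdx4 and Gpx4 was not tested.

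Prdx4 is the peroxiredoxin of the endoplasmic reticulum, where it passes oxidizing equivalents to disulfide formation, and its loss in mice is known for testicular atrophy. Its detected probe (ILMN_2717045) ran from 13.58 to 14.06 with a median of 13.87 in knockdown condensing and from 13.18 to 13.78 with a median of 13.53 in knockdown round spermatids. Wild-type condensing spermatids ran from 13.81 to 13.88 with a median of 13.82, and wild-type round spermatids from 13.20 to 13.63 with a median of 13.59. Wild-type groups did not overlap, and 3 of 6 knockdown condensing arrays were above every knockdown round array. The rise was 0.33 ± 0.11 in the knockdown (limma adjusted p = 0.0091) and 0.30 ± 0.11 in wild type (limma adjusted p = 0.018). Without wild-type round replicate 3 the wild-type rise came to 0.24 and was no longer called (limma adjusted p = 0.057). Without all 3 arrays that stood apart it was also 0.24 and was called, as it was under each of 11 alternative settings.

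Gpx4 reduces lipid hydroperoxides within membranes, and in sperm much of its selenoprotein ends as cross-linked structural material around the mitochondria, while a nuclear form takes part in packing chromatin. Its 3 probes did not give 1 course under the main normalization. The brightest (ILMN_2684855) had medians of 14.72 in knockdown condensing, 14.83 in wild-type condensing, 14.84 in knockdown round and 14.87 in wild-type round spermatids, with stage differences of -0.03 ± 0.10 in the knockdown and -0.00 ± 0.10 in wild type (limma adjusted p = 0.80 and 0.98). All 24 of its values, 14.50 to 14.98, lay close to the top of the scale at 15.18, where a change could be compressed. With arrays scaled to the median of the detected probes it was called higher in condensing spermatids, as were the other Gpx4 probes. Its rise was then 0.47 in the knockdown and 0.65 in wild type (limma adjusted p = 0.0020 and 4.9e-05).

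At probe ILMN_3027761 Gpx4 ran from 13.12 to 13.59 with a median of 13.44 in knockdown condensing and from 13.30 to 13.63 with a median of 13.48 in wild-type condensing spermatids. It ran from 12.28 to 13.18 with a median of 13.01 in knockdown round and from 12.16 to 13.01 with a median of 12.91 in wild-type round spermatids. Wild-type groups did not overlap, and 5 of 6 knockdown condensing arrays were above every knockdown round array. The rise was 0.59 ± 0.15 in the knockdown (limma adjusted p = 0.0014) and 0.69 ± 0.15 in wild type (limma adjusted p = 2.6e-04). Probe ILMN_3100812 rose by 0.46 ± 0.13 in the knockdown and 0.34 ± 0.13 in wild type (limma adjusted p = 0.0025 and 0.025), with no overlap between stages in either genotype. Without wild-type round replicate 3 the wild-type rise at that probe came to 0.23 and was not called (limma adjusted p = 0.093). Without all 3 arrays that stood apart it was also 0.23 and was called, as it was under each of 10 alternative settings. Leaving out the same 3 arrays, the knockdown rises came to 0.34 at ILMN_3027761 and 0.27 at ILMN_3100812. All 3 probes are annotated to 1 Gpx4 transcript, and which of its forms each measures was not analysed here.

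**Figure D2:**
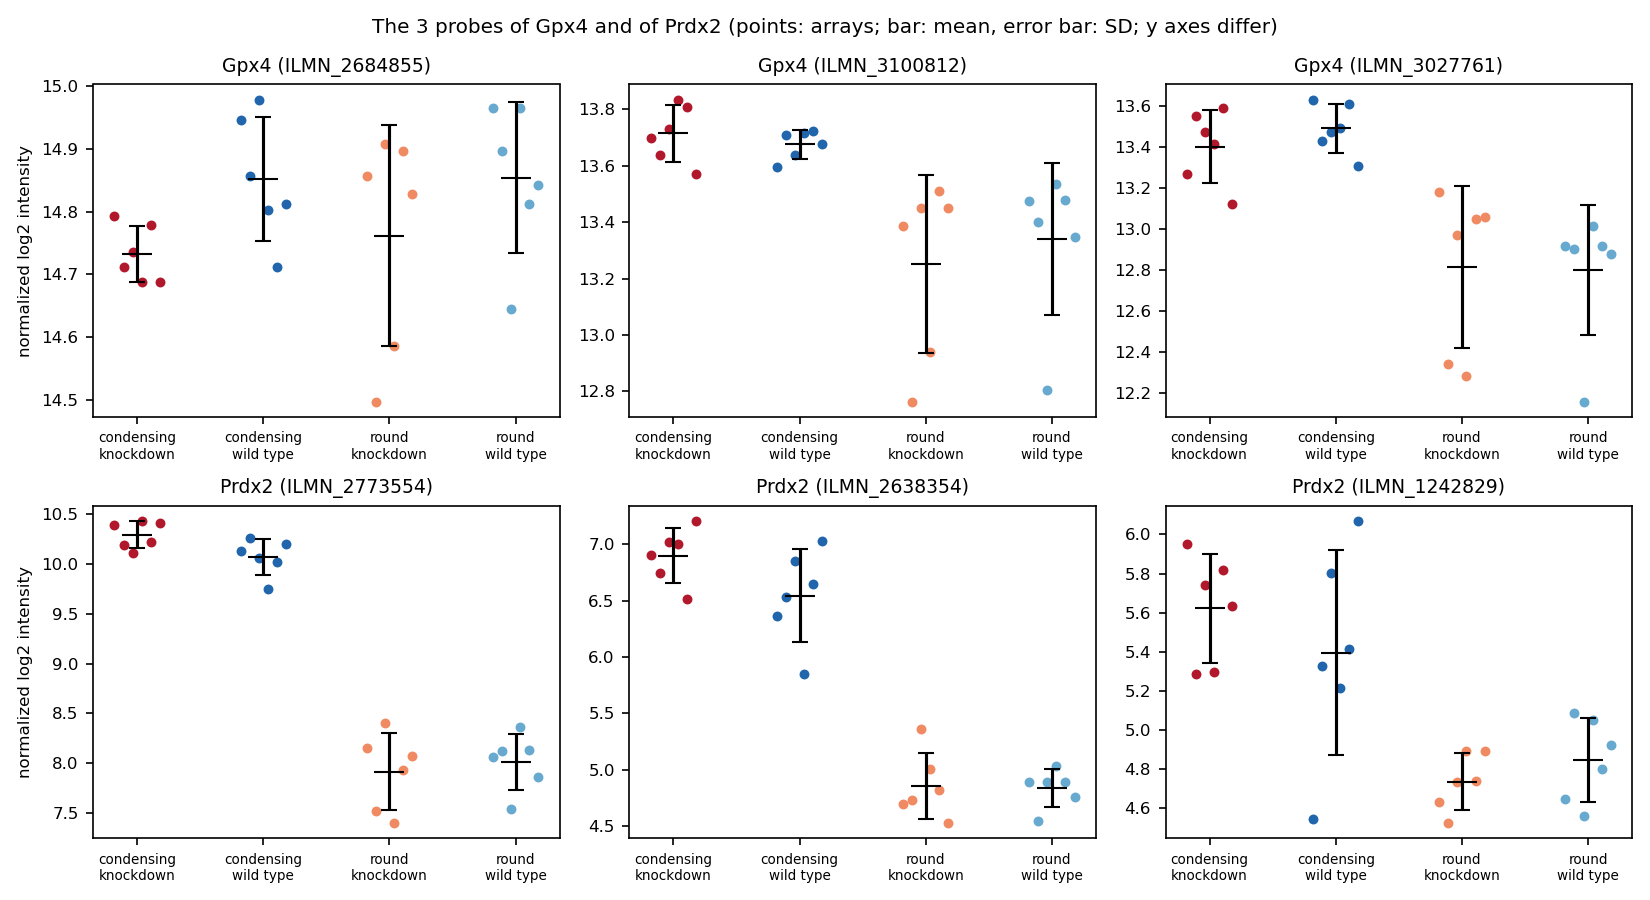
Normalized log2 intensity (y axis, its range differs between panels) at the 3 tested probes of Gpx4 (upper row) and of Prdx2 (lower row) in 4 groups of 6 arrays; each point is an array, the bar is the mean and the error bar the SD. The stages overlap at Gpx4 ILMN_2684855 and part at the other Gpx4 probes but for 1 knockdown array of ILMN_3027761, while all 3 Prdx2 probes have higher means in condensing arrays.

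The 3 round arrays that stood apart did so at these genes too. Over the 9 probes detected on all 24 arrays, they held the 3 lowest round values at 6 probes (Txndc8, Prdx1, the main Prdx2 probe and 3 Gpx4 probes) and the 3 highest at 2 (Txndc2 and Txnrd3). At Prdx4 alone they were mixed with the other 9 round arrays. For Txnrd3 they lay at 13.08 to 13.30, against 12.37 to 12.77 in the other round arrays, and for Prdx1 at 9.75 to 10.04, against 10.36 to 10.69.

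By class, the 3 spermatid genes gave 1 rise, 1 fall and 1 probe not called in the knockdown at their main probes (median -0.00), and the 4 general genes gave 3 rises and 1 probe not called (median 0.37). In wild type the spermatid genes again gave 1 rise, 1 fall and 1 probe not called (median 0.20), and the general genes 2 rises and 2 probes not called (median 0.25). Over all probes tested, 28.0% were called higher and 34.0% lower in the knockdown, and 27.9% and 35.1% in wild type. With 3 and 4 genes the classes overlap, and no test was made between them.

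**Figure D3:**
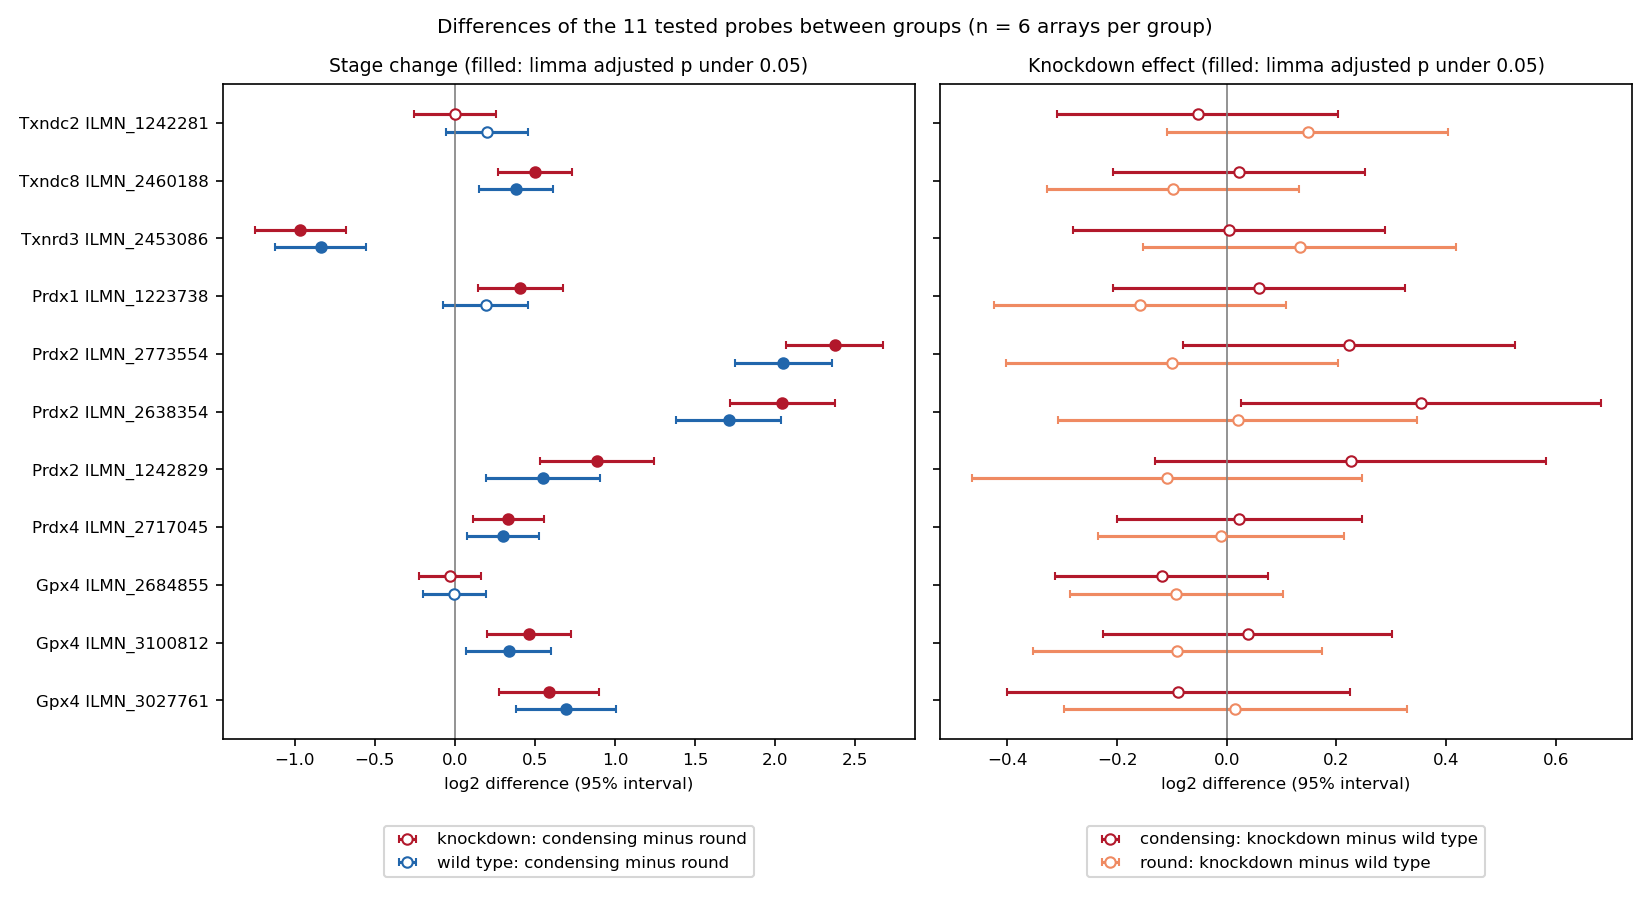
Log2 difference with its 95% interval (x axis) at the 11 tested probes (y axis); left, condensing minus round spermatids in the knockdown (red) and in wild type (blue); right, knockdown minus wild type in condensing (red) and round (orange) spermatids, with 6 arrays per group and filled points where the limma adjusted p is under 0.05. Stage differences run from -0.97 to 2.37 and most are called, while no knockdown difference is called and all lie between -0.16 and 0.35.

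The comparison of genotypes asks whether the levels of these genes differ between labelled knockdown and wild type within a stage. None of the 11 probes was called in condensing spermatids, where limma called 0.466% of all probes tested, 0.183% higher (35) and 0.283% lower (54), and 1603 at an unadjusted p under 0.05. The 11 differences ran from -0.12 to 0.35, and 1 probe, Prdx2 ILMN_2638354, was under an unadjusted p of 0.05 (0.35 ± 0.16, unadjusted p = 0.036, limma adjusted p = 0.54). In round spermatids none of the 11 was called either, where limma called 0.00524% of all probes, which is 1 probe of the pseudogene Npm3-ps1, and 663 at an unadjusted p under 0.05. These differences ran from -0.16 to 0.15 and none had an unadjusted p under 0.05.

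The intervals bound the difference between these knockdown and wild-type arrays under the main normalization. Whether they bound an effect of the genotype across animals is open, since the labels do not say what the arrays replicate. As a percentage of wild type, the knockdown level in condensing spermatids had a 95% interval of 80.7% to 115% for Txndc2, 86.6% to 119% for Txndc8, 82.3% to 122% for Txnrd3, and for Gpx4 85.5% to 123% at ILMN_3100812 and 75.7% to 117% at ILMN_3027761. The brightest Gpx4 probe, near the top of the scale, gives no such bound. They gave 86.7% to 125% for Prdx1, 94.6% to 144% for the main Prdx2 probe and 87.0% to 119% for Prdx4. A change of the size seen at Txnrd3 between the stages lies outside each of these 8 intervals. In round spermatids the intervals were 92.7% to 132% for Txndc2, 79.7% to 109.6% for Txndc8, 90.0% to 134% for Txnrd3, 78.2% to 113% and 81.4% to 126% for Gpx4 at the same probes, 74.6% to 108% for Prdx1, 75.7% to 115% for Prdx2 and 85.0% to 116% for Prdx4.

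The 3 Prdx2 probes were higher in knockdown than in wild-type condensing spermatids in the mean, by 0.22 ± 0.15, 0.35 ± 0.16 and 0.23 ± 0.17 at ILMN_2773554, ILMN_2638354 and ILMN_1242829, and none passed (limma adjusted p = 0.77, 0.54 and 0.82). Probes of 1 gene share each sample's RNA and are not separate evidence. The mean log2 level of the 5 erythroid markers ran higher in the same direction, from 11.41 to 11.65 in knockdown condensing arrays, above all wild-type condensing arrays at 11.20 to 11.40, and none of the 5 was called between genotypes. Sertoli markers also averaged 9.77 to 9.96 in knockdown condensing against 9.67 to 9.81 in wild-type condensing arrays, with none called. In round spermatids the erythroid markers had a median difference of 0.49, knockdown minus wild type, while the main Prdx2 probe had -0.10, and none was called. Their part in the Prdx2 values was not tested. Among all markers of other cell types, 2 peritubular and stromal ones were called in condensing spermatids: Pdgfra, a growth factor receptor, higher in the knockdown by 0.99 ± 0.20 and Acta2, smooth muscle actin, lower, at -0.75 ± 0.16 (limma adjusted p = 0.014 and 0.028).

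The effect of the knockdown was also compared between the stages. No probe of the 11 was called for that difference, where limma called 0.11% of all probes tested, 0.0105% higher and 0.0995% lower, and 1267 at an unadjusted p under 0.05; the values ran from -0.20 to 0.34, the smallest limma adjusted p was 0.82 and none had an unadjusted p under 0.05. For Prdx1, called between stages in the knockdown alone, the difference between the genotypes' stage changes was 0.22 ± 0.18 (limma adjusted p = 0.86), so its stage change is not shown to differ between them.

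Other genes of the same chemistry were read from 4 lists, by the main probe of each gene. Their stage counts stand beside the shares of all probes tested. Those were 28.0% higher and 34.0% lower in the knockdown, and 27.9% and 35.1% in wild type. Of 22 genes of the wider thioredoxin system 15 were tested, and from round to condensing spermatids 8 rose and 2 fell in the knockdown (median 0.55), and 8 rose and 3 fell in wild type (median 0.54). The rises of both genotypes include Txnrd2, above background on 5 condensing arrays of each genotype but only 1 round array, of the knockdown. It passed the filter only through condensing arrays, so its direction was largely set by the filter and adds no support. Among the differences in wild type were Prdx3, the mitochondrial peroxiredoxin, at 2.09 ± 0.16, Txndc5, a disulfide isomerase of the endoplasmic reticulum, at 1.98 ± 0.13, and Srxn1, the sulfiredoxin that repairs overoxidized peroxiredoxins, at 1.43 ± 0.13 (limma adjusted p of 3.2e-10 or less). Prdx3 and Txndc5 were dim, above background on 4 and 1 of 6 wild-type round arrays, and without background correction they came to 0.79 and 0.70, still called. The ubiquitous thioredoxin Txn1 and its reductase Txnrd1 had no probe that passed the filter and gave no value.

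Of 17 genes of the glutathione peroxidase and glutaredoxin system 10 were tested, with 5 rises and 2 falls in the knockdown (median 0.52) and 6 rises and 2 falls in wild type (median 0.54). Among the rises in both genotypes was Glrx, above background on all 12 condensing arrays and on no round array. It passed the filter only through condensing arrays, so its direction was largely set by the filter and adds no support. In wild type Gpx1, the cytosolic glutathione peroxidase, rose by 2.66 ± 0.18 and Glrx2, a mitochondrial glutaredoxin, by 1.59 ± 0.16, while Ggt7 of the gamma-glutamyltransferase family fell by 1.24 (SE 0.10, limma adjusted p = 2.7e-11), or by 0.58 without background correction. As for Prdx2, erythroid and Sertoli markers rose in the same comparison, and their part in these rises was not tested.

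The list of superoxide dismutases, catalase and the Nrf2 axis gave 2 rises and 2 falls in each genotype among 6 tested of 9 genes (medians 0.15 in the knockdown and -0.01 in wild type). Among the rises was Sod3, above background on 4 condensing arrays of each genotype and on no round array. The directions of Sod3 and of Nfe2l2, 1 of the falls, were largely set by the detection filter and add no support. Catalase (Cat), Hmox1 and Nqo1 had no probe that was tested. In wild type Sod1, the cytosolic superoxide dismutase, rose by 0.63 ± 0.17 and Sod2, the mitochondrial one, fell by 0.68 (SE 0.15). Nfe2l2, which encodes the antioxidant regulator Nrf2, was above background on no wild-type condensing array, with measured means of 4.90 there and 5.53 in wild-type round spermatids (limma adjusted p = 0.0018). It was above background on 1 knockdown condensing array, against 4 knockdown and 6 wild-type round arrays. It passed the filter only through round arrays, so the direction of its fall was largely set by the filter. Its difference of -0.62 came to -0.32 at an offset of 50, to -0.17 without background correction and to -0.30, no longer called (limma adjusted p = 0.12), with arrays scaled to the median of the detected probes. Scaled that way Sod1 rose by 1.10 and Sod2 fell by 0.44.

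Selenoprotein synthesis, on which Gpx4 and Txnrd3 depend, gave 3 rises and 3 falls in the knockdown (median -0.01) and 1 rise and 4 falls in wild type (median -0.25) among 8 tested of 12 genes. In wild type Sepsecs and Sephs2, enzymes of selenocysteine synthesis, fell by 1.16 (SE 0.15) and 0.94 (SE 0.13), and Elavl1, an RNA-binding protein, rose by 0.99 ± 0.14 (limma adjusted p of 8.0e-07 or less). All 3 stayed called under the alternatives, but without background correction Sepsecs fell by 0.66 and Elavl1 rose by 0.54, and with arrays scaled to the median of all probes Sephs2 fell by 1.53 and Elavl1 rose by 0.48. No gene of the 4 lists was called between genotypes in either stage. The counts move with the scaling: with arrays scaled to 1 median the wild-type rises and falls were 7 and 7, 3 and 4, 2 and 3, and 1 and 5 for the 4 lists in this order.

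**Figure D4:**
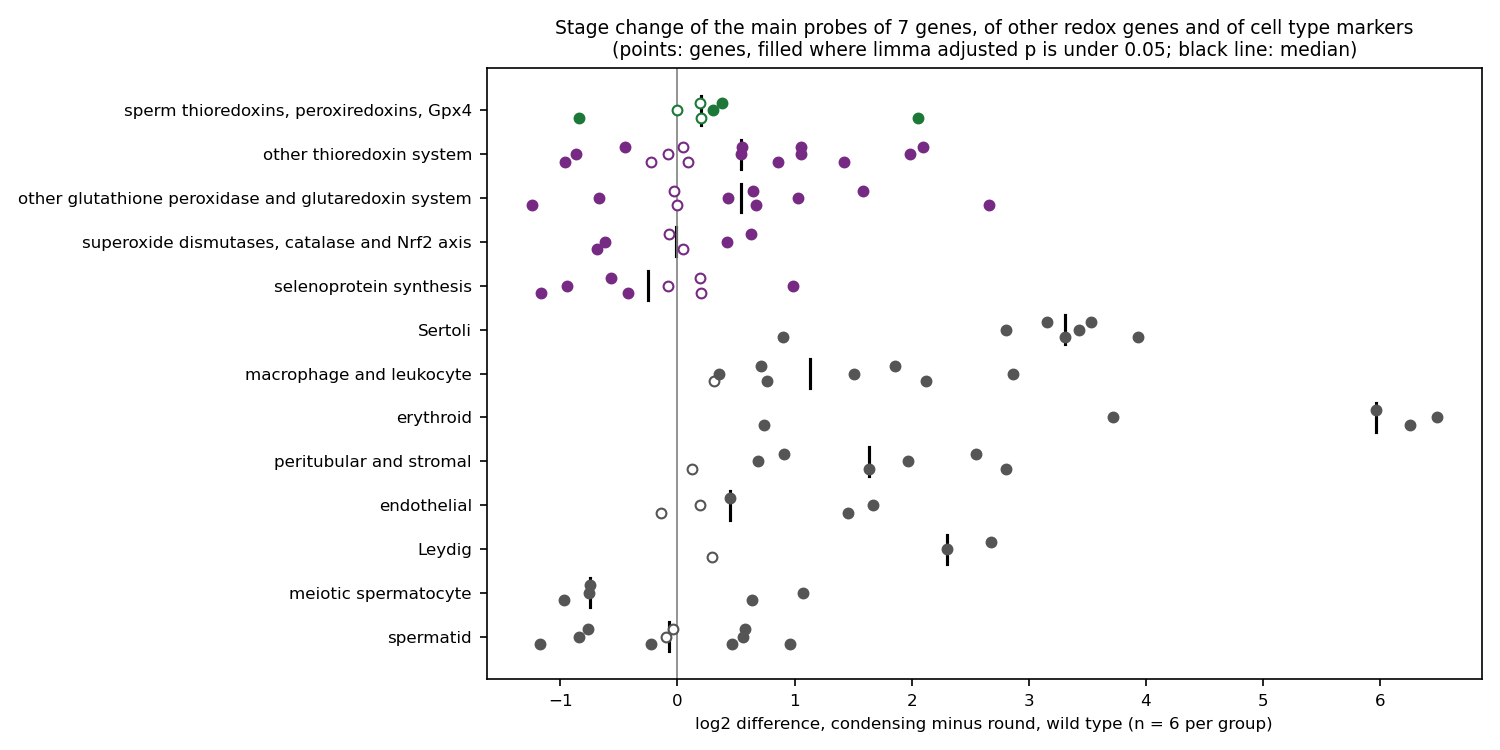
Log2 difference, condensing minus round wild-type spermatids (x axis, n = 6 arrays per group), of the main probes of the 7 measured genes (green), of 4 lists of other redox genes (purple) and of 8 lists of cell type markers (grey); each point is a gene, filled where the limma adjusted p is under 0.05, and the black line is the list's median. Erythroid and Sertoli markers lie highest, at medians of 5.97 and 3.31, and the 7 genes lie between -0.84 and 2.05.

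The promoters of the genes that changed with stage at their main probe in both genotypes, and of Gpx4, whose probes differed, are shown so that they can be read side by side. Each is the 250 bases before the annotated start in RefSeq, build GRCm38.p6, written 5′ to 3′ on the gene's own strand, and for Gpx4 it is 1 of 4 starts. Capitals mark matches on either strand of TGACG, the shorter core of the cyclic AMP response element, or of CCAAT, the CCAAT box, which is read ATTGG on the opposite strand. The windows are Txndc8 chr4:58009127-58009376 (minus strand), Txnrd3 chr6:89643738-89643987 (plus strand), Prdx2 chr8:84969372-84969621 (plus strand), Prdx4 chrX:155338461-155338710 (minus strand) and Gpx4 chr10:80053315-80053564 (plus strand).
Txndc8: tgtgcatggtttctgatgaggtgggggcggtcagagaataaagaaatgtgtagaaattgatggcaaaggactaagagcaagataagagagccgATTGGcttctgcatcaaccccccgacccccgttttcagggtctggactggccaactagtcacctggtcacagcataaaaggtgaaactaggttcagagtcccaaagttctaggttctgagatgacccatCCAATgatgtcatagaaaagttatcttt
Txnrd3: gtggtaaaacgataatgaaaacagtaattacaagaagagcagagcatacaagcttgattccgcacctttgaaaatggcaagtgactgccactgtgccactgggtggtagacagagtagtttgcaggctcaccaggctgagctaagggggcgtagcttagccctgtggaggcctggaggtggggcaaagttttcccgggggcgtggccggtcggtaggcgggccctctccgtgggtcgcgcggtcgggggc
Prdx2: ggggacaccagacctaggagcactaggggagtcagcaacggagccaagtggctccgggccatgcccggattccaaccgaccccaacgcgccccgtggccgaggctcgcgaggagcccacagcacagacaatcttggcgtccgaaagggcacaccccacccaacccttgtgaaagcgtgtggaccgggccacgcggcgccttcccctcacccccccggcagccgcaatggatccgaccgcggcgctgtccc
Prdx4: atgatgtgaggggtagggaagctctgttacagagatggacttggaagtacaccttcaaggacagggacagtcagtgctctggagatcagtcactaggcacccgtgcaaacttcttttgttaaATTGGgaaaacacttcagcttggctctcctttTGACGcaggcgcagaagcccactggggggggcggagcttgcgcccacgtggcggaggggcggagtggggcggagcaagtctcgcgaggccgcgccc
Gpx4: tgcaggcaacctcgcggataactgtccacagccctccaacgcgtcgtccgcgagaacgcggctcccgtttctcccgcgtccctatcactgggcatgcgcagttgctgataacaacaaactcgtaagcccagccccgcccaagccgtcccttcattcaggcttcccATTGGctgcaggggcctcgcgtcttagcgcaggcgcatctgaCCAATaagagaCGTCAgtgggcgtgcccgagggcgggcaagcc

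None of these windows, and none of any of the 9 members in the promoter table, held the full cyclic AMP response element TGACGTCA, which 1.55% of 32851 mouse promoter windows held. The core TGACG stood in the Gpx4 window 32 bases and in the Prdx4 window 96 bases before the start, and in 17.8% of all windows. CCAAT began 28 and 157 bases before the start of Txndc8, 43 and 85 before that of Gpx4 and 128 before that of Prdx4, and 33.8% of all windows held it. The Txnrd3 and Prdx2 windows, of the 1 gene that fell and the gene that rose most, held no match of either, nor of the antioxidant response element core TGACNNNGC (10.2% of all windows) or of TATAAA (12.4%). The window of Prdx1, which is not printed, held TATAAA from 29 bases and TGACNNNGC from 133 bases before the start. A window of Txndc2, also not printed, held TGACNNNGC from 203 bases before its start. These matches describe letters and show no binding.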

How the data were processed

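The authors deposited a table of non-normalized probe intensity values on a linear scale and, as the file headers show, deposited with them a detection p-value for 45281 probes on each of 24 arrays. They also deposited a second table of linear intensity values, whose sorted values differ between arrays by at most 0.0129 log2 and keep the ranks of the first table; its column medians were 130.0 on every array, it is not centred and it holds no ratios, and how its background was treated is not given in the sources used here. Per the labels' protocols, 200 ng of total RNA with a RNA integrity number of at least 7 was amplified per sample. The scanner software is not given in the sources used here.

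The deposited intensities were corrected by normexp, with the noise estimated through the detection p-values, and raised by an offset of 16. Quantile normalization and log2 followed, the steps of neqc in limma 3.58.1 under R 4.3.3. A probe was kept if its detection p was under 0.05 on at least 6 arrays (19086 probes). One limma fit held 4 group means over all 24 arrays, with 5 contrasts and Benjamini-Hochberg adjustment over all probes kept, and was tested on simulated data. Errors of differences are SEs of the fit, with 6 arrays per group limiting the precision. Symbols came from a GEO platform annotation (34885 probes with 1 symbol, 18 with several, 10378 with none), and 99.9% of the symbols of kept probes were in the RefSeq table.

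The members and all lists were chosen with earlier results of these data known. Named are all member probes, per list the 3 called genes with the largest wild-type stage difference and any called between genotypes, and for each member the 2 genes most like it. Npm3-ps1, Slc4a1, Myh11, Cyp11a1, Cdh5, Txn1, Txnrd1, Txnrd2, Glrx and Sod3 were named after their values were seen. Alternatives were median scaling, no background correction, an offset of 50, the authors' table, 2 other detection filters, 1 probe per gene, array weights, only the groups compared, and arrays left out; median scaling over detected probes was added after the data were seen. The file headers name no slide, so no slide block was run.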

Additional observations from a re-analysis of the deposited data

Results flagged for a closer look

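Within groups of 6 arrays, 44 sets of values of the 11 tested probes were examined for a lowest or highest array far from the others, and 4 stood out, where chance alone flags about 1 group in 20. All 4 are the lowest value of wild-type round replicate 3, 1 of the 3 arrays that stood apart over all probes, so they are not separate findings. Gpx4 stood at 12.81 there at ILMN_3100812, against 13.35 in the nearest array, and at 12.16 at ILMN_3027761, against 12.88. Prdx1 (ILMN_1223738) stood at 9.84, against 10.41, and Prdx4 (ILMN_2717045) at 13.20, against 13.56.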

How the results depend on the processing

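No paired analysis was possible because the labels number the arrays 1 to 24 with no number shared between groups. The counts of called probes stayed at 0 in both genotype comparisons and in their difference under every alternative run. The stage counts of 9 in the knockdown and 8 in wild type stayed within 1.5 times under each but 1 probe per gene, which tests 7 probes and called 5 and 4. None of the 17 called values changed sign under any of up to 11 alternatives and 24 omissions of 1 array; of 38 values not called, 18 did. Median scaling over the detected probes, chosen after seeing the data, turned Gpx4 ILMN_2684855 to 0.47 (limma adjusted p = 0.0020) in the knockdown and 0.65 (4.9e-05) in wild type between stages, and Txndc2 to 0.57 (5.9e-05) in the knockdown; the cause was not tested. It put the median wild-type stage difference of all probes at 0.10, median scaling over all probes put it at -0.34, and quantile normalization at -0.06. The wild-type stage difference of Txndc2 was called at 0.45 under median scaling, 0.28 with array weights and 0.89 under scaling over detected probes, and that of Nfe2l2 lost its call under the last (-0.30). Array omissions gave 0.16 to 0.30 for Txndc2 and 0.23 to 0.38 for Gpx4 ILMN_3100812 in wild type. Without the 3 arrays that stood apart the Prdx1 stage difference in the knockdown was 0.24 and still called.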

Other observations

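For each measured gene the genes with the most similar course were found over 24 arrays, as the smallest root mean square difference in log2 level after each gene was centred on its own mean, among 10194 genes. This is a description, since all genes share the same arrays. Txndc8 lay closest to Ppp2r5d, a regulatory subunit of protein phosphatase 2A (0.0968), and to Smcp, the cysteine-rich protein of the sperm mitochondrial capsule (0.105). Txnrd3 lay closest to Fbxl13, an F-box protein (0.0993), and to Ide, the insulin-degrading enzyme (0.108). Their own stage differences were 0.40 and 0.35 for Ppp2r5d and Smcp in the knockdown and 0.25 and 0.28 in wild type, and -0.98 and -0.87 for Fbxl13 and Ide in the knockdown and -0.76 and -0.81 in wild type.

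Txndc2 lay closest to Dgka, a diacylglycerol kinase (0.101), and Appl1, an endosomal adaptor (0.111), and the brightest Gpx4 probe to Prss39, a testis protease (0.0962), and Atpaf2, an assembly factor of ATP synthase (0.107). Prdx1 lay closest to Eif4e2, a cap-binding protein (0.102), and Supt4a, a transcription elongation factor (0.111), and Prdx4 to Fbxo6, an F-box protein (0.114), and Cdc37l1, a relative of a kinase chaperone (0.117). The nearest genes to Prdx2 were farther off, Tceal9 at 0.179 and Akr1a1, an aldehyde reductase, at 0.185, with stage differences of 2.59 for Tceal9 and 2.08 for Akr1a1 in the knockdown and of 2.03 and 1.81 in wild type. The median distance over all genes ran from 0.377 for Gpx4 to 1.17 for Prdx2.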
